A study of Mus musculus with 14 samples.

Results

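NPC(GFP-), the neural progenitors of the series, were set against Oct4-GFP-H-ESC, the embryonic stem cells sorted for a high Oct4 reporter signal. Of 13180 genes with a usable symbol in the deposited table, 12864 had at least 1 FPKM in either library and make up this comparison, and 316 were under that level in both. FPKM counts sequenced fragments per transcript length and per depth of the library. The series holds 14 mouse samples, of which 4 are RNA libraries; the other 10, ChIP and input, are not used here. Each population has 1 library. A difference between 2 libraries therefore has no replicate error, and genes are described by size alone, with no test.

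All the cells derive from a mouse embryonic stem cell line that reports Oct4 (gene Pou5f1) with green fluorescent protein. NPC(GFP-) are the cells that gave no GFP signal on day 8 of neural differentiation in N2B27, a serum-free medium. This sort chose cells by loss of the reporter and not by a neural marker, so the population may hold any cell type without Oct4. Oct4-GFP-H-ESC are cells of the line sorted for high GFP. The line was grown in serum and LIF (10 ng/ml), a cytokine that holds mouse stem cells undifferentiated, on mitomycin C-treated fibroblast feeders. Values are also given for DR-ESC, the GFP-positive cells of the day 8 culture that were returned to stem cell medium, and for Oct4-GFP-ESC, the line without the high-GFP sort. Both sorts used a reporter of Pou5f1, so the level of this gene was selected by the design. In bulk RNA, fewer cells of a type and less RNA per cell cannot be told apart.

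Mouse embryonic stem cells are held in a pluripotent state by a network of transcription factors around Pou5f1, Sox2 and Nanog. On neural differentiation this network is shut down and SoxB1, Pax and POU class III factors take over, with Sox2 shared by both states. Neural progenitors hold neurogenesis in check through Notch: a cell with the ligand Dll1 activates Notch receptors on its neighbours, and the cleaved receptor joins the DNA-binding protein Rbpj to switch on Hes genes, which repress proneural factors. Regional factors and Hox genes record the position along the body axis.

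Small RNAs mark both states. The miR-290 cluster is the main microRNA cluster of mouse embryonic stem cells, and miR-9 and miR-124 belong to neural progenitors and neurons. Mature miR-9-5p and 3 members of the miR-290 cluster are shown because the rows that carry them differ in opposite directions. The letters are from RefSeq, assembly GRCm38.p6, with the seed (bases 2 to 8, which pair with target RNAs) in capitals.

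mmu-miR-9-5p: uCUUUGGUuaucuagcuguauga
mmu-miR-291a-3p: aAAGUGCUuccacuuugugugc
mmu-miR-294-3p: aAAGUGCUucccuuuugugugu
mmu-miR-295-3p: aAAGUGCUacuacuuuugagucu

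The last 3, all from the miR-290 cluster, share the seed AAGUGCU, which miR-9-5p does not have. Poly(A) libraries measure host and primary transcripts and not these mature RNAs. The row that joins D7Ertd143e and Mir290 was listed at 0 in NPC(GFP-), against 13.9 FPKM in Oct4-GFP-H-ESC, with 14.9 for DR-ESC and 7.41 for Oct4-GFP-ESC. The row of Mir9-2 had 9.08 FPKM in NPC(GFP-) and 0.0351 in Oct4-GFP-H-ESC, and the row with Mir9-1 had 1.05 and 0.0521, a log2 ratio of 0.96. Mir124a-2 had 27.6 FPKM in NPC(GFP-) and was listed at 0 in Oct4-GFP-H-ESC. All of these neural loci were higher in NPC(GFP-) by value, but the Mir9-1 row was under 2-fold. Mir124a-3 had 1.64 FPKM in NPC(GFP-) and 0.0758 in Oct4-GFP-H-ESC, and the row with Mir124a-1 had 13.1 and 1.17, so that locus was not silent in the stem cells. DR-ESC had 0.382 FPKM for Mir9-2 and 0.558 for Mir124a-2. Of 79 rows with a microRNA symbol, 19 were at least 2-fold higher and 14 at least 2-fold lower in NPC(GFP-), beside 18.5% and 16.2% of all genes compared. These rows were chosen after their values were seen.

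The promoter of Hes5, a repressor that Notch induces, and that of Lfng, a sugar transferase that tunes Notch receptors, are shown because Hes5 is the Notch gene with the highest ratio and both hold the core letters GTGGGAA bound by Rbpj. Each is a window of 300 bases from a table of RefSeq promoters (GRCm38.p6, plus strand), 250 before and 50 after an annotated start, at chr4:154960673-154960972 for Hes5 and chr5:140607091-140607390 for Lfng. The RefSeq record of Hes5 as a whole begins before this window, at position 154960626, so the start used is one inside the record. Capitals mark GTGGGAA on either strand.

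Hes5: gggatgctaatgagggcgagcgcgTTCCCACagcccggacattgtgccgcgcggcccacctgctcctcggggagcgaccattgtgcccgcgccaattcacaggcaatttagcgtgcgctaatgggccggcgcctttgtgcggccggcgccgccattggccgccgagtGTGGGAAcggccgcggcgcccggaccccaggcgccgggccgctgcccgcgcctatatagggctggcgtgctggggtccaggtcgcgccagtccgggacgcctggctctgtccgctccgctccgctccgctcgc
Lfng: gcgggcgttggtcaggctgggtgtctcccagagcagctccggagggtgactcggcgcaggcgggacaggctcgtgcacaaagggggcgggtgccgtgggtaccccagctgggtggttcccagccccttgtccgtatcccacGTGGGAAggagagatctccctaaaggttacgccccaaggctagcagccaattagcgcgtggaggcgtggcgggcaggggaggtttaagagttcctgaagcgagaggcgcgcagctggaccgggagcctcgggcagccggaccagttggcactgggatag

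Hes5 has the core 2 times, once on each strand, and Lfng has it 1 time. Of 27025 RefSeq promoters of this length, 6.39% hold the core and 0.263% hold it 2 times or more. Of 30 Notch genes compared, 23 have an entry, and Hes5 and Lfng were the 2 that hold the core. That share, 8.70%, was near the 6.39% of all promoters. Dll1 and Nrarp have an entry without the core, and Hes1 has no entry. The match is a description of letters and not of binding, and the motif was chosen after the values were seen.

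Across all genes, 2386 of 12864 (18.5%) were at least 2-fold higher in NPC(GFP-) and 2083 (16.2%) at least 2-fold lower, and 8395 lay between. Here and below the size is log2((FPKM + 1) ratio), NPC(GFP-) over Oct4-GFP-H-ESC, which understates the change of genes at low levels, and 2-fold is a value of 1 or -1. The median log2 ratio was 0.03. A gene under 1 FPKM in either library was compared only if the other reached 1 FPKM, so the minimum fixed its direction, though not its size. At 16-fold, 106 genes were higher and 113 lower. Summed FPKM was 345804 in NPC(GFP-) and 437605 in Oct4-GFP-H-ESC. With the sums made equal the split became 3317 higher and 1575 lower, and the median of all genes moved to 0.33, so a list near 0 has no firm direction. The log2 ratio also ran with abundance, with genes put in 10 equal groups by abundance: the median was -0.22 in group 1, the least abundant, 0.34 in group 3 and -0.42 in group 10, the most abundant. Read depth cannot be taken from FPKM and is unknown.

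**Figure D1:**
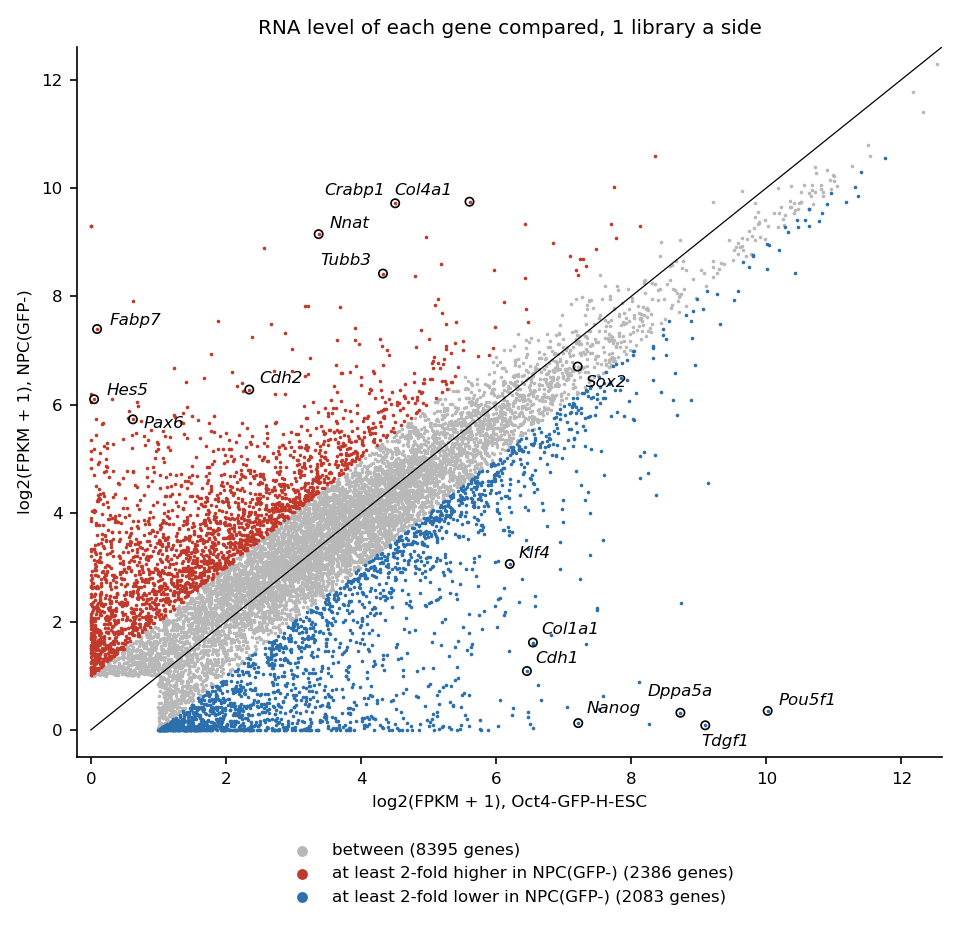
Each point is 1 gene, with log2(FPKM + 1) in NPC(GFP-) on the y axis and in Oct4-GFP-H-ESC on the x axis (1 library each), and the line marks equal levels. The 2386 red genes are at least 2-fold higher and the 2083 blue genes at least 2-fold lower in NPC(GFP-); stem cell genes such as Pou5f1 (0.276 against 1037 FPKM) lie along the bottom, neural genes such as Fabp7 (168 against 0.0665) along the left, and Sox2 near the line.

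Some genes were close to on-off. In 67 genes NPC(GFP-) had at least 20 FPKM and Oct4-GFP-H-ESC less than 1, and in 87 genes the reverse held. The highest ratio among the ranked genes belonged to Fabp7, a fatty acid carrier of radial glia, which had 168 FPKM in NPC(GFP-) and 0.0665 in Oct4-GFP-H-ESC, with 5.41 for DR-ESC and 0.412 for Oct4-GFP-ESC. The long non-coding RNA Miat had 241 FPKM in NPC(GFP-) and 0.548 in Oct4-GFP-H-ESC. Crabp2, which carries retinoic acid into the nucleus, had 475 FPKM in NPC(GFP-) and 4.94 in Oct4-GFP-H-ESC. All 3 were far above every stem cell library. Next came Hes5, with 67.7 and 0.0344 FPKM in NPC(GFP-) and Oct4-GFP-H-ESC, and Dbx1, a factor of spinal and hindbrain interneuron progenitors, with 65.3 FPKM in NPC(GFP-) and listed at 0 in Oct4-GFP-H-ESC. The imprinted gene Nnat had 566 FPKM in NPC(GFP-) and 9.36 in Oct4-GFP-H-ESC. Igdcc3, Ednrb (an endothelin receptor), Nhlh1 (an early neuron factor), Nr2f1 (an orphan nuclear receptor of neural tissue), D0H4S114 (now Nrep) and Nsg2 complete the 12, with 49.0 to 186 FPKM in NPC(GFP-). Predicted genes, small RNAs and rows that merge symbols were left out of this ranking, among them the row that joins 2900092D14Rik with the neural factor Pou3f3 (2900092D14RikPou3f3), with 68.0 FPKM in NPC(GFP-) and 0.243 in Oct4-GFP-H-ESC.

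At the other end stood Pou5f1 itself, chr17:35506032-35510777, with 0.276 FPKM in NPC(GFP-) and 1037 in Oct4-GFP-H-ESC, a log2 ratio of -9.67. DR-ESC had 609 FPKM of it and Oct4-GFP-ESC 1881. Tdgf1 (Cripto, a Nodal co-receptor) had 0.0612 FPKM in NPC(GFP-) and 546 in Oct4-GFP-H-ESC. Dppa5a, an RNA-binding protein of pluripotent cells, had 0.246 FPKM in NPC(GFP-) and 423 in Oct4-GFP-H-ESC. All 3 were near 0 in NPC(GFP-), so the order of their ratios follows the stem cell level. Utf1, Dnmt3l, Tdh, Nanog, Lefty2 and Dppa2 were also under 1 FPKM in NPC(GFP-), at 89.7 to 306 FPKM in Oct4-GFP-H-ESC. Hspb1, a small heat shock protein, had 4.05 FPKM in NPC(GFP-) and 426 in Oct4-GFP-H-ESC. Sfn, an epithelial 14-3-3 protein, had 0.550 FPKM in NPC(GFP-), 192 in Oct4-GFP-H-ESC and, for DR-ESC, 7.85, and S100a6, a calcium-binding protein of the feeder list, had 0.345, 132 and 2.29 in the same libraries. Both were low in NPC(GFP-) and DR-ESC and high in the 2 libraries taken from the line without differentiation.

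**Figure D2:**
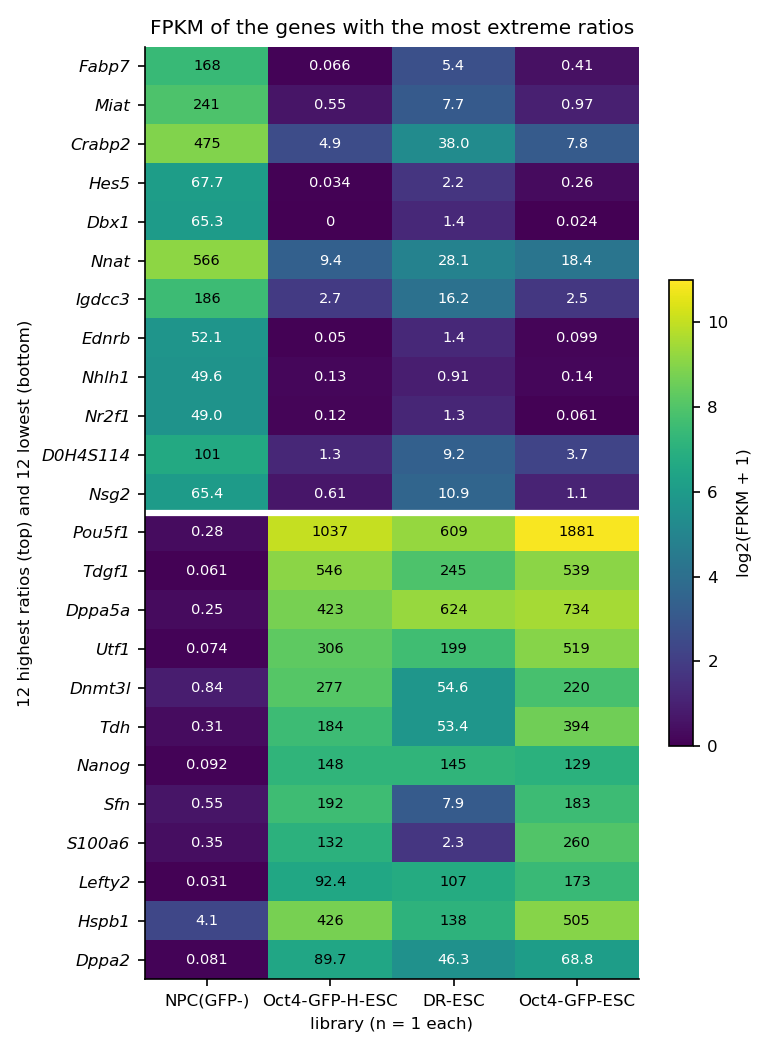
FPKM of the 12 genes with the highest (top) and the 12 with the lowest (bottom) log2 ratio, in columns for NPC(GFP-), Oct4-GFP-H-ESC, DR-ESC and Oct4-GFP-ESC, with 1 library each and colour for log2(FPKM + 1). In the top block NPC(GFP-) is the highest column in every row, and in the bottom block it is the lowest, from 0.0311 FPKM for Lefty2 to 4.05 for Hspb1.

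The labels were checked against defining markers. Sox1, Pax6, Nes, Fabp7, Hes5, Pou3f2 and Cdh2, the neural progenitor markers, summed to 523 FPKM in NPC(GFP-) and 15.7 in Oct4-GFP-H-ESC, and all 7 were higher. The 7 pluripotency markers summed to 9.81 FPKM in NPC(GFP-) and 1998 in Oct4-GFP-H-ESC, and 7.35 of the 9.81 was Klf4, which other cells also use. They include Pou5f1, whose reporter set both sorts, and without it the other 6 summed to 9.54 and 961 FPKM in the same libraries. Neuron markers summed to 785 FPKM in NPC(GFP-) and 107 in Oct4-GFP-H-ESC, with 6 of 7 higher. The table lists 1 of 4 astrocyte markers, Aldh1l1, at 0.621 FPKM in NPC(GFP-) and 1.76 in Oct4-GFP-H-ESC. Of the oligodendrocyte lineage, Pdgfra, which parietal endoderm also expresses, had 11.3 FPKM in NPC(GFP-) and 3.21 in Oct4-GFP-H-ESC, and Mbp had 3.08 and 0.863, while the table has no row for Olig1, Sox10 or Cspg4. Endoderm markers summed to 72.4 FPKM in NPC(GFP-) and 23.2 in Oct4-GFP-H-ESC. Fibroblast markers summed to 5.15 FPKM in NPC(GFP-), 165 in Oct4-GFP-H-ESC, 5.73 for DR-ESC and 168 for Oct4-GFP-ESC.

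The pluripotency network was the lowest of the 40 gene lists. Of 35 core and naive genes, 32 were lower and 0 higher, with a median log2 ratio of -4.06. Many naive factors were under 1 FPKM in NPC(GFP-): Esrrb had 0.770 FPKM in NPC(GFP-) and 97.0 in Oct4-GFP-H-ESC, and Zfp42 (Rex1) 0.771 and 37.2. Klf4 and Klf5 were lower but kept a level, Klf4 at 7.35 FPKM in NPC(GFP-) and 72.6 in Oct4-GFP-H-ESC, and Klf5 at 19.9 and 164. The 3 genes of the list within 2-fold were Sox2, Tet2 and Lin28b. Sox2 had 103 FPKM in NPC(GFP-) and 147 in Oct4-GFP-H-ESC, a log2 ratio of -0.50, and Lin28b had 9.20 and 7.19. Lin28a, the other LIN28 protein that blocks let-7 maturation, was lower but present at 37.9 FPKM in NPC(GFP-), against 114 in Oct4-GFP-H-ESC.

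Genes of the formative and primed states, which stem cells pass through before they become neural, went both ways. Of 25, 15 were lower and 6 higher (median -1.997). Among those lower, Nodal had 0.130 FPKM in NPC(GFP-) and 53.3 in Oct4-GFP-H-ESC, Otx2 had 0.0231 and 6.34, and Dnmt3b had 6.14 and 51.0. The 6 that were higher, Sox3, Sox4, Sox11, Sall2, Sfrp2 and Fst, are also used in neural tissue, and Dnmt3a, Zic2, Zic5 and Etv1 lay within 2-fold. Sox3 had 96.9 FPKM in NPC(GFP-) and 5.55 in Oct4-GFP-H-ESC, and Sox11 had 130.3 and 6.90. Of 21 LIF and STAT3 response genes, 11 were lower and 3 higher (median -1.04, and -0.74 with the sums made equal). Bcl3, a nuclear IkB protein that LIF induces, had 0.151 FPKM in NPC(GFP-) and 17.5 in Oct4-GFP-H-ESC, while the LIF receptor chain Lifr had 16.5 and 6.11. LIF was named for the stem cell culture and not for the N2B27 medium, so the state of the cells and the cytokine cannot be told apart.

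2-cell-like and germline genes were also low in NPC(GFP-). The 2-cell-like state is a transient state of few cells in a stem cell culture, with transcripts of the early embryo. All 19 of its genes were lower (median -3.11), and 12 of them were listed at 0 in NPC(GFP-). All but Eif1a were under 1 FPKM there and were compared only through Oct4-GFP-H-ESC, so the minimum had fixed their direction. Zscan4c had 0.0170 FPKM in NPC(GFP-) and 34.6 in Oct4-GFP-H-ESC, and the near-identical Zscan4 copies may share reads. This list depends on the stem cell library, since Zscan4c had 36.4 FPKM for DR-ESC and 2.59 for Oct4-GFP-ESC. Of 28 germ cell, meiosis and piRNA genes, 25 were lower and 1 higher (median -2.33). Most of these were under 1 FPKM in NPC(GFP-) too, so their direction was fixed in the same way. Tex19.1, which holds retrotransposons in check, had 0.458 FPKM in NPC(GFP-) and 65.4 in Oct4-GFP-H-ESC, and Ddx4 (Vasa) had 0.164 and 15.5. Kit, a receptor of germ cells that other tissues use as well, was the member that was higher, at 22.5 FPKM in NPC(GFP-) and 7.98 in Oct4-GFP-H-ESC.

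Of 39 neural progenitor factors and markers, 35 were higher and 0 lower, with the highest median of the lists at 3.54. Pax6, a paired-box factor of the ventricular zone, had 52.1 FPKM in NPC(GFP-) and 0.540 in Oct4-GFP-H-ESC, and DR-ESC had 12.7. Pou3f2 (Brn2) had 35.5 FPKM in NPC(GFP-) and 0.0300 in Oct4-GFP-H-ESC. Nes, an intermediate filament of progenitors, had 96.9 and 6.87. The SoxB1 genes differed among themselves: Sox3 had a log2 ratio of 3.90 and Sox1 of 2.43, while Sox2 lay within 2-fold. Sox1, often taken as the first marker of neural commitment, had 26.6 FPKM in NPC(GFP-), 4.11 in Oct4-GFP-H-ESC, 14.4 for DR-ESC and 3.73 for Oct4-GFP-ESC. The 4 members within 2-fold were Sox2, Hes1, Slc1a3 and Ddah1. Over the Sox family as a whole 12 of 14 genes were higher and Sox15 was lower, and all 6 Pax rows were higher.

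**Figure D3:**
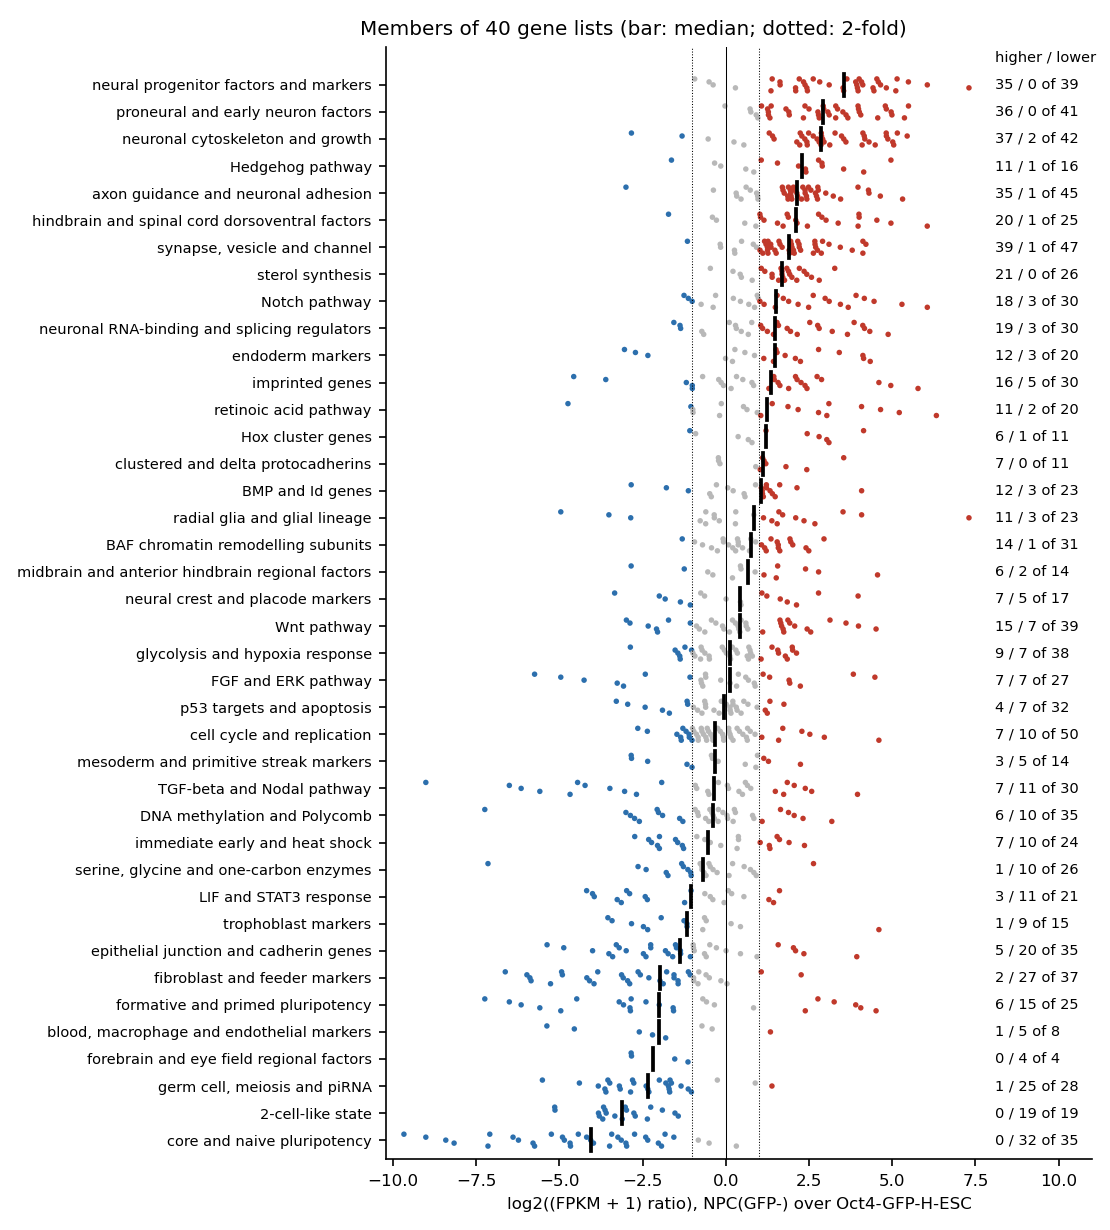
Each point is a member of 1 of 40 gene lists, at its log2((FPKM + 1) ratio), NPC(GFP-) over Oct4-GFP-H-ESC; red is at least 2-fold higher, blue at least 2-fold lower, the bar is the list's median, and the numbers at the right give higher and lower members of those compared. Medians run from 3.54 for neural progenitor factors down to -4.06 for core and naive pluripotency, beside 0.03 for all genes.

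Among regional factors, those of the hindbrain and spinal cord were higher and those of the forebrain were not. Of 25 hindbrain and spinal dorsoventral factors, 20 were higher and 1 lower (median 2.10). Both sides of the tube were represented: ventral Nkx6-1 had 35.9 FPKM in NPC(GFP-) and 0.184 in Oct4-GFP-H-ESC, and dorsal Pax3 had 15.3 and 0.0345. Irx3, an intermediate factor, had 53.9 FPKM in NPC(GFP-), 1.36 in Oct4-GFP-H-ESC and 17.7 for DR-ESC. The floor plate genes Shh and Foxa2 had 6.73 and 11.9 FPKM in NPC(GFP-), against 0.0445 and 0.875 in Oct4-GFP-H-ESC. Foxa2 is not particular to floor plate and is also counted in the set of basement membrane and parietal endoderm genes below. Olig2, a motor neuron progenitor factor, had 3.57 FPKM in NPC(GFP-) and 0.0655 in Oct4-GFP-H-ESC. Of 14 midbrain and anterior hindbrain factors, 6 were higher and 2 lower (median 0.67), and Pax2 led them with 26.5 FPKM in NPC(GFP-) and 0.168 in Oct4-GFP-H-ESC. The forebrain and eye field list has 21 symbols, of which 4 are in the table, and all 4 were lower. They summed to 0.0759 FPKM in NPC(GFP-) and were compared only through Oct4-GFP-H-ESC, so the minimum had fixed their direction. Otx2, used in forebrain and midbrain and also in the epiblast, had 0.0231 FPKM in NPC(GFP-) and 6.34 in Oct4-GFP-H-ESC. Each row of the table exceeds 1 FPKM in at least 1 library, and the 17 forebrain symbols without a row have no value here.

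Hox rows differed by position. Hox genes are numbered in paralogue groups along their 4 clusters, and low groups act at the hindbrain end of the axis. Rows that start in groups 1 to 5 summed to 251 FPKM in NPC(GFP-) and 8.45 in Oct4-GFP-H-ESC, with 8 of 9 compared higher. The row that joins Hoxb2, Hoxb3 and Hoxb4 had 122 FPKM in NPC(GFP-) and 2.44 in Oct4-GFP-H-ESC. Hoxc4 had 26.04 FPKM in NPC(GFP-) and 0.535 in Oct4-GFP-H-ESC. In groups 6 to 8, 3 of 7 rows were higher and 1 was lower, and Hoxb8 stood out with 13.9 FPKM in NPC(GFP-) and 0.824 in Oct4-GFP-H-ESC. Rows of groups 9 to 13 summed to 0.703 FPKM in NPC(GFP-) and 6.91 in Oct4-GFP-H-ESC, of which 5.91 was the row that joins Hoxb9 with Gm53 and Mir196a-1. DR-ESC differed at this end, with 20.1 FPKM over those rows and 43.2 over groups 1 to 5. Some rows merge neighbouring genes, so single Hox genes within them cannot be resolved.

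**Figure D4:**
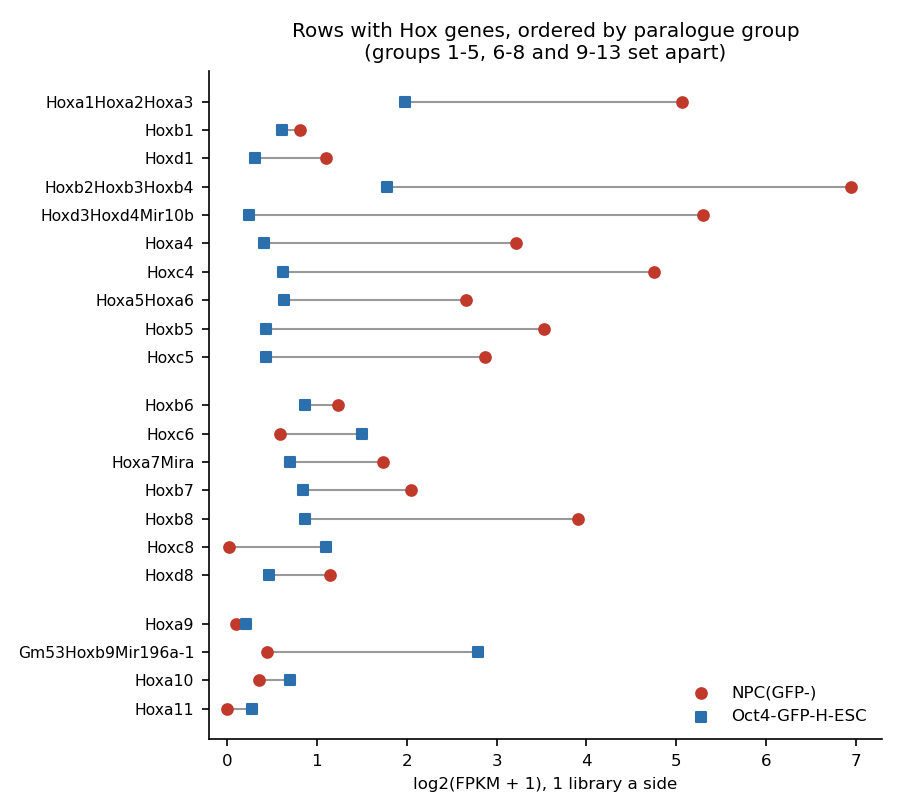
log2(FPKM + 1) of the 21 rows with a Hox gene, ordered by paralogue group from top to bottom with groups 1 to 5, 6 to 8 and 9 to 13 set apart; circles are NPC(GFP-) and squares Oct4-GFP-H-ESC, 1 library each. The widest gaps lie in the top block, led by the Hoxb2, Hoxb3 and Hoxb4 row (122 against 2.44 FPKM), and in the bottom block NPC(GFP-) lies at or below Oct4-GFP-H-ESC.

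Factors that drive progenitors into neurons were higher. Of 41 proneural and early neuron factors, 36 were higher and 0 lower (median 2.93). Nhlh1, expressed in newborn neurons, had 49.6 FPKM in NPC(GFP-) and 0.128 in Oct4-GFP-H-ESC, and Neurog2 had 9.95 and 0.109. Scrt2, a repressor of newborn neurons, had 42.6 FPKM in NPC(GFP-) and 0.0572 in Oct4-GFP-H-ESC. Lhx1, a factor of interneurons, had 26.1 FPKM in NPC(GFP-) and 0.143 in Oct4-GFP-H-ESC. The neuropeptide Sst, outside the lists and chosen after its value was seen, had 39.8 FPKM in NPC(GFP-) and was listed at 0 in Oct4-GFP-H-ESC.

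Genes of the neuronal skeleton and growth cone followed, with 37 of 42 higher and 2 lower (median 2.87). Dcx, a microtubule protein of migrating neurons, had 34.6 FPKM in NPC(GFP-) and was listed at 0 in Oct4-GFP-H-ESC. Tubb3, neuronal beta-tubulin, had 342 FPKM in NPC(GFP-) and 19.04 in Oct4-GFP-H-ESC, and Mtap2 (Map2) had 84.9 and 1.66. Stmn2, often used as a neuron marker, lay within 2-fold, at 59.0 FPKM in NPC(GFP-), 49.6 in Oct4-GFP-H-ESC, 30.1 for DR-ESC and 117 for Oct4-GFP-ESC. The filaments Nefl and Nefm had 205 and 178 FPKM in NPC(GFP-), against 35.8 and 5.36 in Oct4-GFP-H-ESC, while the heavy chain Nefh had 0.667 and 10.9 and peripherin, Prph, 2.51 and 7.71. These 2 were the members that were lower.

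Synaptic genes were higher by count but low in level. Of 47, 39 were higher and 1 lower (median 1.90), and Snap25, a release protein, had 17.7 FPKM in NPC(GFP-) and 0.0753 in Oct4-GFP-H-ESC. Transmitter genes had low levels: the GABA transporter Slc32a1 had 7.17 FPKM in NPC(GFP-) and 0.211 in Oct4-GFP-H-ESC, the glycine transporter Slc6a5 had 2.92 and was listed at 0, and the glutamate transporter Slc17a6 had 1.04 and was listed at 0. Of 45 axon guidance and neuronal adhesion genes, 35 were higher and 1 lower (median 2.13). Robo3, which lets commissural axons cross the midline, had 58.0 FPKM in NPC(GFP-) and 0.485 in Oct4-GFP-H-ESC, and the attractant Ntn1 had 60.4 and 11.4. Unc5b, a netrin receptor that vessels use as well, was the gene that was lower, with 1.32 and 17.5. Glial genes were mixed, with 11 of 23 higher and 3 lower (median 0.84). Those higher included radial glia factors such as Sox9, at 13.8 FPKM in NPC(GFP-) and 0.287 in Oct4-GFP-H-ESC. The 3 lower were Apoe, Tnc and Cd44, and Tnc and Cd44 are also matrix and surface genes of fibroblasts: Tnc had 0.554 FPKM in NPC(GFP-), 47.2 in Oct4-GFP-H-ESC, 0.541 for DR-ESC and 36.5 for Oct4-GFP-ESC.

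The Notch pathway was higher at most steps, with 18 of 30 genes higher and 3 lower (median 1.51). Among ligands, Dll1 had 49.5 FPKM in NPC(GFP-) and 2.36 in Oct4-GFP-H-ESC, Dll3 had 24.95 and 1.03, and Jag1 had 15.7 and 2.72, while Jag2 had 6.36 and 11.3, within 2-fold. Among receptors, Notch1 had 36.7 FPKM in NPC(GFP-) and 5.10 in Oct4-GFP-H-ESC, and Notch3 had 35.6 and 17.998, within 2-fold. Notch4, the receptor best known from vessels, was low in both and only just past 2-fold lower (log2 ratio -1.01). It had 0.628 FPKM in NPC(GFP-) and 2.28 in Oct4-GFP-H-ESC. The glycosyltransferase Lfng, whose promoter is printed above, had 21.2 FPKM in NPC(GFP-) and 1.04 in Oct4-GFP-H-ESC. The targets differed among themselves. Hes5 had a log2 ratio of 6.05, and the feedback gene Nrarp had 44.9 FPKM in NPC(GFP-) and 1.09 in Oct4-GFP-H-ESC, but Hes1 had 12.004 and 15.9 and lay within 2-fold. Hes1 is also expressed in stem cells, and DR-ESC had 22.4 FPKM of it. The DNA-binding partner Rbpj was lower, at 20.8 FPKM in NPC(GFP-) and 51.1 in Oct4-GFP-H-ESC (log2 ratio -1.25, and -0.93 with the sums made equal, -0.99 with the trend removed and -0.92 against Oct4-GFP-ESC). Hes6, which promotes neurogenesis against Hes1, had 105 FPKM in NPC(GFP-) and 11.3 in Oct4-GFP-H-ESC.

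Receivers of Hedgehog, the ventral signal of the neural tube, were higher. Of 16 genes, 11 were higher and 1 lower (median 2.29). The co-receptors Boc and Gas1 had 26.3 and 19.05 FPKM in NPC(GFP-), against 0.548 and 0.724 in Oct4-GFP-H-ESC. Ptch1, receptor and target, had 43.0 FPKM in NPC(GFP-), 7.38 in Oct4-GFP-H-ESC and 35.4 for DR-ESC. The direct target Gli1 lay within 2-fold, at 6.33 FPKM in NPC(GFP-) and 7.13 in Oct4-GFP-H-ESC. Retinoic acid, which gives hindbrain and spinal identity, had 11 of 20 genes higher and 2 lower (median 1.22). The binding protein Crabp1 was among the most abundant of all higher genes, at 840.4 FPKM in NPC(GFP-) and 21.7 in Oct4-GFP-H-ESC. The degrading enzyme Cyp26a1 and the receptor Rarb, both known retinoic acid targets, had 13.7 and 8.25 FPKM in NPC(GFP-), against 0.720 and 0.341 in Oct4-GFP-H-ESC. Aldh1a2, the main synthetic enzyme of the embryo, was lower, with 0.153 FPKM in NPC(GFP-) and 1.39 in Oct4-GFP-H-ESC.

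Other signals were mixed, beside 18.5% of all genes compared higher and 16.2% lower. In the FGF list 7 of 27 genes were higher and 7 lower (median 0.13). The ligand Fgf4 had 0.0124 FPKM in NPC(GFP-) and 53.2 in Oct4-GFP-H-ESC, and the ERK-induced factor Etv4 had 2.00 and 92.0, while the receptor Fgfr3 had 26.2 and 0.909. In the Wnt list 15 of 39 were higher and 7 lower (median 0.42). Neural Wnt7a and Wnt7b had 16.02 and 22.6 FPKM in NPC(GFP-), against 0.393 and 3.03 in Oct4-GFP-H-ESC, while the effectors Lef1 and Tcf7 had 0.140 and 3.06, against 7.38 and 19.4. The common target Axin2 lay within 2-fold, with 6.33 and 5.38. In the TGF-beta and Nodal list, 11 of 30 were lower and 7 higher (median -0.36). Those lower were led by the Nodal branch, with Lefty1 at 0.251 FPKM in NPC(GFP-) and 87.7 in Oct4-GFP-H-ESC and Foxh1, a SMAD partner, at 0.527 and 27.6. Those higher included receptors, with Tgfbr1 at 26.95 FPKM in NPC(GFP-) and 3.67 in Oct4-GFP-H-ESC, and Gdf11, a ligand that acts in the spinal cord, at 40.7 and 1.68. In the BMP and Id list 12 of 23 were higher and 3 lower (median 1.07, and 0.64 against Oct4-GFP-ESC). Id4 had 36.4 FPKM in NPC(GFP-) and 1.21 in Oct4-GFP-H-ESC and Bmp4 had 0.589 and 10.4, while Id3 lay within 2-fold at 49.8 and 42.6.

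Several gene families had one member high in the stem cells and a relative high in NPC(GFP-). These families were chosen after the values were seen, and FPKM allows levels of different genes to be set side by side. Among POU factors, Pou5f1 was lower and Pou3f2 and Pou3f4 were higher, but Pou3f1 (Oct6) was lower, with 2.26 FPKM in NPC(GFP-) and 8.68 in Oct4-GFP-H-ESC. E-cadherin, Cdh1, had 1.12 FPKM in NPC(GFP-), 86.8 in Oct4-GFP-H-ESC and 48.0 for DR-ESC. N-cadherin, Cdh2, had 76.7 FPKM in NPC(GFP-), 4.08 in Oct4-GFP-H-ESC and 5.98 for DR-ESC. Other epithelial junction genes followed Cdh1, and of the 35 genes of that list 20 were lower and 5 higher (median -1.36). Epcam had 3.35 FPKM in NPC(GFP-) and 68.7 in Oct4-GFP-H-ESC, and the tight junction protein Cldn4 had 0.197 and 33.9.

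In the list of BAF chromatin remodelling genes 14 of 31 were higher and 1 was lower (median 0.75). The lower one, Chd5, is a helicase of the NuRD complex and no BAF subunit. The neural subunits were higher while their stem cell relatives lay within 2-fold. Smarcc2 had 47.6 FPKM in NPC(GFP-) and 7.63 in Oct4-GFP-H-ESC, and Smarcc1 had 63.3 and 67.0. Actl6b, the subunit of neurons, had 7.15 FPKM in NPC(GFP-) and 0.0546 in Oct4-GFP-H-ESC, and Actl6a, the subunit of dividing cells, had 53.7 and 72.7. The splicing repressors were alike in this, with Ptbp2 of the nervous system at 65.4 FPKM in NPC(GFP-) and 8.80 in Oct4-GFP-H-ESC, and the general Ptbp1 at 139 and 221. Of 30 neuronal RNA-binding genes, 19 were higher and 3 lower (median 1.48). The Hu protein Elavl3 had 41.8 FPKM in NPC(GFP-) and 1.13 in Oct4-GFP-H-ESC, and the neuronal splicing factor Srrm4 had 16.2 FPKM in NPC(GFP-) and 0.190 in Oct4-GFP-H-ESC. Rest, which represses neuronal genes elsewhere, had 11.5 FPKM in NPC(GFP-) and 74.7 in Oct4-GFP-H-ESC.

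In other families some members were lower and others higher. Tet1 had 4.37 FPKM in NPC(GFP-) and 41.9 in Oct4-GFP-H-ESC, and Tet3, the related oxidase of methylated DNA, had 21.8 and 1.51, while Tet2 lay within 2-fold at 7.94 and 14.8. The retinoic acid receptor Rarg had 1.74 FPKM in NPC(GFP-) and 72.3 in Oct4-GFP-H-ESC, Rara had 27.7 and 17.4, within 2-fold, and Rarb was higher. In Polycomb complexes Cbx7 had 12.9 FPKM in NPC(GFP-) and 50.8 in Oct4-GFP-H-ESC, while Cbx2 had 25.7 and 7.56 and Cbx8 had 6.34 and 0.990. Ezh2, the Polycomb methyltransferase, lay within 2-fold at 73.3 and 61.1. Myc had 4.74 FPKM in NPC(GFP-) and 28.4 in Oct4-GFP-H-ESC, Mycl1 had 39.0 and 4.13, and Mycn lay within 2-fold at 33.6 and 60.4. Among cyclins of G1, Ccne1 had 15.6 FPKM in NPC(GFP-) and 102 in Oct4-GFP-H-ESC, Ccnd3 had 52.7 and 122, and Ccnd2 had 90.8 and 15.0.

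**Figure D5:**
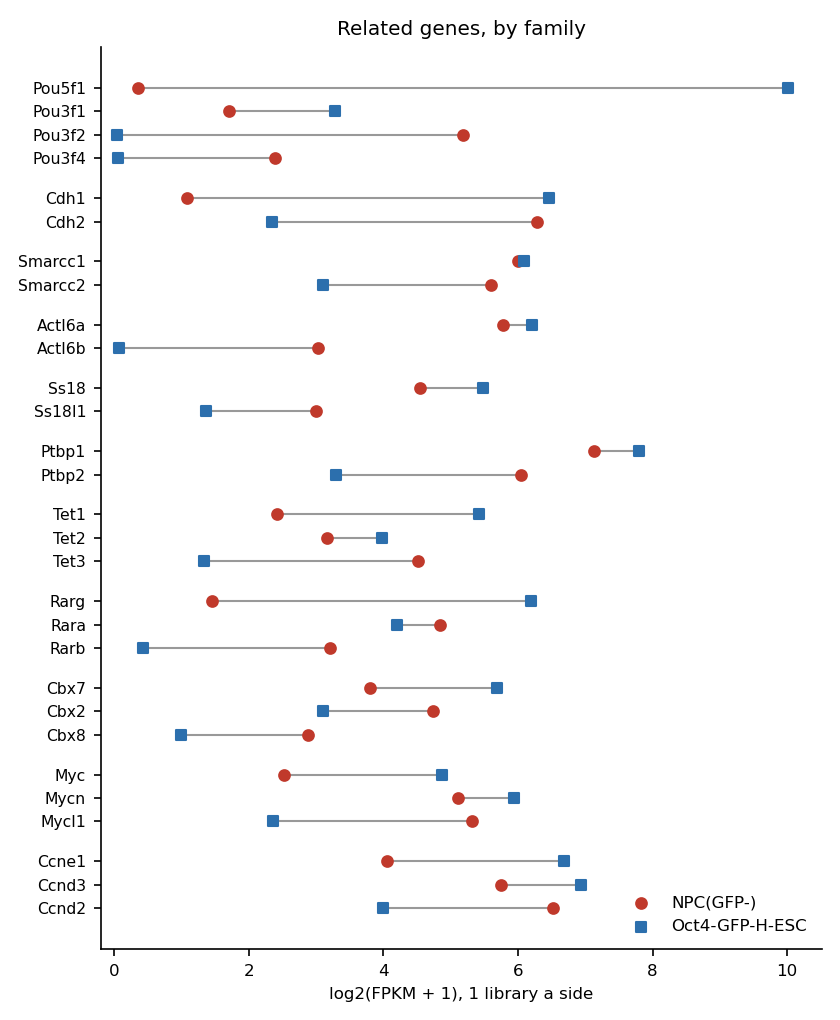
log2(FPKM + 1) of related genes in blocks by family (octamer-binding POU factors, classical cadherins, 3 pairs of BAF subunits, PTB splicing repressors, TET enzymes, retinoic acid receptors, Polycomb CBX subunits, MYC factors and G1 cyclins); circles are NPC(GFP-) and squares Oct4-GFP-H-ESC, 1 library each. In the BAF and PTB blocks the stem cell form stays within 2-fold while the neural form is higher, and in the cadherin, TET and retinoic acid receptor blocks members cross, as with Cdh1 (1.12 against 86.8 FPKM) and Cdh2 (76.7 against 4.08).

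Both populations could hold other cells. Of 37 fibroblast and feeder markers, 27 were lower and 2 higher in NPC(GFP-) (median -1.98). The collagen gene Col1a1 had 2.06 FPKM in NPC(GFP-), 92.4 in Oct4-GFP-H-ESC, 2.03 for DR-ESC and 92.4 for Oct4-GFP-ESC. Fbln2, an extracellular matrix protein, had 0.204, 74.7, 1.20 and 61.1 FPKM in the same order. The high values were thus in the 2 libraries taken from the line on feeders, sorted or not, and Dcn and Lum have no row in the table. Feeders carry no reporter, so a sort for high GFP is meant to leave them out, but no value here measures its purity. Members of the list differed in this. Col1a1 had 92.4 FPKM both with that sort and without it, and Fbln2 was higher with it. S100a6 had 132 FPKM with the sort and 260 without it, and S100a4 had 58.1 and 94.7. The part of feeder RNA in the lower genes, Tnc, Cd44, S100a6 and Sfn included, was not tested. Of 8 blood, macrophage and endothelial markers 5 were lower and 1 higher (median -2.003), and Pecam1, also found on mouse stem cells, had 0.0922 FPKM in NPC(GFP-) and 24.6 in Oct4-GFP-H-ESC. Of 15 trophoblast markers 9 were lower and 1 higher, and of 14 mesoderm markers 5 were lower and 3 higher (median -0.32). Of all genes compared 18.5% were higher and 16.2% lower, and the 21.4% of mesoderm markers that were higher lay near that share. The mesoderm factor T was under 1 FPKM in both, at 0.261 in NPC(GFP-) and 0.914 in Oct4-GFP-H-ESC, while Oct4-GFP-ESC had 16.1.

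The 2 feeder-list genes that were higher were Sparc and Loxl2. Of 20 endoderm markers 12 were higher and 3 lower (median 1.47). Cxcr4, a chemokine receptor of endoderm and of neural cells, had the highest ratio, with 50.2 FPKM in NPC(GFP-) and 1.53 in Oct4-GFP-H-ESC. Next were the type IV collagens of basement membranes: Col4a1 had 857 FPKM in NPC(GFP-) and 47.7 in Oct4-GFP-H-ESC, and Col4a2 had 543 and 30.3. Lama1 had 384 FPKM in NPC(GFP-) and 35.3 in Oct4-GFP-H-ESC, and Sparc had 1034 and 214. The endoderm factors Gata4 and Sox17 had 39.0 and 8.32 FPKM in NPC(GFP-), against 7.45 and 1.71 in Oct4-GFP-H-ESC, and Gata6 had 15.7 and 6.55 (log2 ratio 1.14, and 0.90 with the abundance trend removed). A wider set of 34 genes of basement membrane and parietal endoderm was put together after these values were seen. It holds genes named above, such as Col4a1, Lama1 and Gata4, so its count is no separate evidence. In it 25 were higher and 2 lower, beside 18.5% and 16.2% of all genes compared. The exceptions were Hspg2, at 39.6 FPKM in NPC(GFP-) and 94.8 in Oct4-GFP-H-ESC, and Amn of visceral endoderm, at 0.0238 and 4.18. Cubn, its partner, was level at 7.37 and 7.41, Apoa2 and Trf were lower, and Afp has no row in the table. The part of endoderm cells in the NPC(GFP-) library was not tested, and radial glia make basement membrane proteins as well. DR-ESC had Col4a1 at 115 FPKM and Gata4 at 7.60, close to the stem cells for Gata4.

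Imprinted genes, of which the embryo reads 1 parental copy, were mostly higher, with 16 of 30 higher and 5 lower (median 1.37, and 0.88 against Oct4-GFP-ESC). Cdkn1c, a cell cycle inhibitor, had 224 FPKM in NPC(GFP-) and 8.28 in Oct4-GFP-H-ESC, and Peg12 had 51.0 and 0.675. The exceptions included Phlda2, listed at 0 in NPC(GFP-) with 22.7 FPKM in Oct4-GFP-H-ESC, and H19, with 9.79 and 23.5 (log2 ratio -1.19, and -0.87 with the sums made equal). The row that joins Meg3 with its microRNAs, not counted in the list, had 0.0364 FPKM in NPC(GFP-), 20.1 in Oct4-GFP-H-ESC, 0.166 for DR-ESC and 13.3 for Oct4-GFP-ESC. The feeder markers Col1a1 and Fbln2 were likewise low in NPC(GFP-) and DR-ESC and high in the other libraries, and their part in this row was not tested. Its neighbour Dlk1, of the same locus but the other parental copy, was higher, with 10.5 FPKM in NPC(GFP-) and 2.10 in Oct4-GFP-H-ESC.

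Metabolic genes differed by pathway. Sterol synthesis had 21 of 26 genes higher and 0 lower (median 1.70), with Insig1, a sterol sensor, at 145 FPKM in NPC(GFP-), 14.1 in Oct4-GFP-H-ESC and 98.3 for DR-ESC. Hmgcs1, an early enzyme of the pathway, had 245 FPKM in NPC(GFP-), 34.1 in Oct4-GFP-H-ESC and 131 for DR-ESC. Against Oct4-GFP-ESC the median of the sterol list was 0.97. NPC(GFP-) came from serum-free medium and Oct4-GFP-H-ESC from serum, so cell state and medium cannot be told apart. Of 26 serine, glycine and one-carbon genes 10 were lower and 1 higher (median -0.69). Tdh, which mouse stem cells use to break down threonine, had 0.306 FPKM in NPC(GFP-) and 184 in Oct4-GFP-H-ESC. Of 38 glycolysis and hypoxia genes 9 were higher and 7 lower (median 0.13). These shares, 23.7% and 18.4%, were near the 18.5% and 16.2% of all genes compared. The glucose transporter Slc2a3 had 55.2 FPKM in NPC(GFP-) and 409 in Oct4-GFP-H-ESC, while the oxygen sensor Egln1 had 24.5 and 4.84. Of 50 cell cycle genes 7 were higher and 10 lower (median -0.31, and 0.02 with the sums made equal). These shares, 14% and 20%, were also near those of all genes. Mki67, a marker of dividing cells, had 49.9 FPKM in NPC(GFP-) and 31.5 in Oct4-GFP-H-ESC. Ribosomal protein genes took 15.0% of summed FPKM in NPC(GFP-) and 21.7% in Oct4-GFP-H-ESC, with 23 of 81 lower and 0 higher (median -0.82). With the abundance trend removed 4 were lower, and against Oct4-GFP-ESC 80 of 80 were lower (median -1.72).

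The other 5 lists had medians between -0.55 and 1.11. Their counts stand beside 18.5% of all genes compared higher and 16.2% lower. Of 11 protocadherins, adhesion proteins of neurons, 7 were higher and 0 lower (median 1.11). Neural crest and placode markers had 7 of 17 higher and 5 lower (median 0.44). Of 35 DNA methylation and Polycomb genes 6 were higher and 10 lower (median -0.38), and of 32 p53 targets and apoptosis genes 4 were higher and 7 lower (median -0.06). Immediate early and heat shock genes, which respond to handling, had 7 of 24 higher and 10 lower (median -0.55). Egr1, an immediate early factor, had 44.1 FPKM in NPC(GFP-) and 11.1 in Oct4-GFP-H-ESC, while Hspa1b, an inducible heat shock protein, had 1.28 and 9.69.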

How the data were processed

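Poly(A) RNA of 4 mouse cell populations was used, 1 library each, with groups from the sample titles. Values are as deposited by the authors in a table of log2 values per gene, named as normalised FPKM; undoing log2(FPKM + 1) gave numbers of at most 6 significant digits for 99.8% of non-zero values. The submitters' processing notes name Bowtie 0.12.8, TopHat2 2.0.9, HTSeq, DESeq2 and CASAVA 1.8, with build mm10 and no roles. Which program gave FPKM, and whether libraries were scaled to each other, is not given in the sources used here. The labels do not state strand, so overlapping, antisense and near-identical genes may share reads, and 298 rows merge neighbouring symbols. Rows exceed 1 FPKM in at least 1 library, and 19 rows with date-like symbols were dropped. Depth is unknown, and no count-based interval can be given.

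The difference is log2((FPKM + 1) ratio), NPC(GFP-) over Oct4-GFP-H-ESC, for genes that reached 1 FPKM in one of them. With 1 library a side there is no test, and 2-fold is a size. The 40 gene lists are described by counts and medians beside those of all genes; merged rows are not counted. Named genes are the 12 highest and 12 lowest that reached 5 FPKM in either, the 3 highest and 3 lowest such members past 2-fold in each list, and a set of fixed names (of which Gfap and Sox10 have no row); further members were named after their values were seen, and a few named genes are not reported here. Members and lists were chosen with earlier results of these data known. Of the symbols, 97.1% matched RefSeq GRCm38.p6, which gave coordinates and sequences. Scripts ran in Python 3.11.15 with pandas 2.3.3, numpy 2.4.6 and, for figures, matplotlib 3.10.9, and were tested on simulated tables. A planned check of promoter composition over all genes was void, because fewer than 80% of the genes higher or lower had a promoter entry, and a planned protein alignment was not run.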

Additional observations from a re-analysis of the deposited data

How the results depend on the processing

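Of 10 alternatives, the 4-fold size bears only on counts. The other 9 turned the sign of 0 of 26 list medians past 2-fold. They also turned 0 of 191 named genes past 2-fold (190 with Oct4-GFP-ESC and 189 at a minimum of 5 FPKM). Most of this was fixed in advance, for single genes and for list medians. An FPKM minimum leaves a gene's ratio unchanged, and a pseudocount cannot turn its sign. The scalings shift genes by less than 2-fold. The result for genes thus rests mainly on the swap to Oct4-GFP-ESC. That for list medians rests mainly on the same swap and on the FPKM minimum, which changes the members compared. The counts of genes higher and lower moved by over 1.5 times with a pseudocount of 5 (1144 and 1004) and at 4-fold (797 and 633). With Oct4-GFP-ESC in place of Oct4-GFP-H-ESC 3292 genes were lower and 2014 higher, with a median log2 ratio of -0.25. With the sums of FPKM made equal the counts were 3317 higher and 1575 lower. With the abundance trend removed they were 2185 and 1973, and centring on genes of at least 5 FPKM in both libraries gave 2570 and 1952 (overall median 0.10). The pseudocount of 5 took 16 of the 26 list medians and 20 of the 191 named genes under 2-fold. Medians near 0 changed sign for the FGF, neural crest, cell cycle, p53 and glycolysis lists under 1 or more alternatives. No paired analysis was possible because each group has 1 library and no test was made. Without replicates, no value has an error between samples, and low FPKM values rest on an unknown number of reads.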

Other observations

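Genes that were higher in NPC(GFP-) spanned more of the genome than those that were lower. The median gene span was 36.3 kb for the 2321 higher genes matched to RefSeq, 16.2 kb for the 2011 lower genes and 23.2 kb for the genes between. A span of 100 kb or more was found in 25.7% of the higher genes, 7.31% of the lower genes and 11.3% of those between. Long genes of the nervous system, such as the adhesion gene Robo2 with 3.91 FPKM in NPC(GFP-) and 0.0139 in Oct4-GFP-H-ESC, are part of the higher group.

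Some differences came in runs of neighbours, counted as 5 or more consecutive compared genes past 2-fold in one direction. The longest was 16 lower genes at chr4:145464210-147812229, a zinc-finger gene cluster that includes Rex2 and Zfp600. At chr6:122513584-122802363 Gdf3, Dppa3, Nanog and Slc2a3 lay in a run of 6 lower genes, and at chr7:10794241-11402318 the 6 Zscan4 genes formed another. At chr7:59619158-63766232 a run of 8 higher genes held the imprinted genes Ipw, Ndn, Magel2, Mkrn3 and Peg12. On the X chromosome, at chrX:134685650-135598781, 6 higher genes included Armcx1, Armcx2, Armcx3, Armcx4 and Armcx6. Reads of near-identical copies cannot be told apart here, so the members of such a run are not independent.

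Hormone and metal-binding genes outside the lists, chosen after their values were seen, also stood apart. Trh, the precursor of thyrotropin-releasing hormone, was listed at 0 in NPC(GFP-), with 41.7 FPKM in Oct4-GFP-H-ESC, 92.9 for DR-ESC and 312 for Oct4-GFP-ESC. The metallothioneins Mt1 and Mt2 had 32.9 and 22.5 FPKM in NPC(GFP-), against 325 and 562 in Oct4-GFP-H-ESC.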
